A study of Mus musculus with 12 samples.

Results

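The genes described here carry glucose and lactate across the cell membrane, run glycolysis, store and release glycogen and open the pentose phosphate pathway. They are 34 listed symbols, and all 34 were found among the 24390 symbols of the expression table. Of these, 31 reached a mean of 10 normalized counts over the 12 libraries and were tested, among 13030 tested genes. Aldoc, Pgam1 and Eno1 stayed below that limit, and Eno1 was listed at 0 in every library.

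The mice were C57BL/6, 8 weeks old, and total RNA of their cardiac ventricles was sequenced in 4 groups of 3 libraries. WT_saline is wild-type hearts after saline, and WT_AAV is wild-type hearts after the agent AAV9TRISPR, an AAV9 vector that the titles name together with Mef2d. TG_saline and TG_AAV received the same injections but carry the transgene Myh6-dCas9VPR, in which the Myh6 promoter of heart muscle drives a nuclease-dead Cas9 joined to the activator VPR. Only TG_AAV holds both components, and the activator is made in cardiomyocytes only, while the RNA came from every cell type of the ventricle.

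Glucose enters cardiomyocytes through the transporters GLUT4, which insulin and contraction bring to the cell surface, and GLUT1, and is trapped by hexokinase. The glucose 6-phosphate can pass down glycolysis to pyruvate and lactate, be stored as glycogen, or enter the pentose phosphate pathway, which yields NADPH and ribose. The adult heart draws most of its energy from fatty acids, and the fetal heart relies more on glycolysis. Many steps have several isozymes, of which one is typical of muscle and others of liver, brain or many tissues.

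Compared with the 3 control groups together, hearts with both components had lower transcripts of Slc2a4, for insulin-responsive glucose uptake, and of Hk2, for glucose phosphorylation. Lower too were those for making fructose 2,6-bisphosphate and for the heart-type lactate dehydrogenase. Those of Ugp2, for UDP-glucose synthesis, and of the scarce lactate exporter Slc16a3 were higher. Against TG_saline, which shares the transgene, 1 of the 31 tested members, Ugp2, passed the test described next, beside 6.09% of all tested genes. Hk2 and Pygb lay lower in TG_saline than in WT_saline already, and neither passed between TG_AAV and TG_saline. The lactate exporter Slc16a3 averaged 36.6 normalized counts in TG_AAV, and its call was lost without TG_AAV 3. Summed with the more abundant Slc16a1, which was lower, lactate transporter counts averaged 3704 in TG_AAV and 4486 in the controls. Against the 3 control groups, 14 of the 31 tested members passed (limma, Benjamini-Hochberg adjusted p under 0.05), 4 higher and 10 lower, beside 21.7% of all tested genes, with 12% higher and 9.69% lower. At an unadjusted p under 0.05 there were 16 members, beside 35.1% of all tested genes. The 3 TG_AAV values lay above all 9 control values for 3 tested members and below them for 8, beside 10.2% and 7.26% of all tested genes. The glycogen phosphorylase Pygb, the hexokinase Hk2, the glucose transporter Slc2a4, the lactate dehydrogenase Ldhb, Pfkfb2, Pfkfb3, Pfkm, Eno3, the lactate transporter Slc16a1 and Tkt were lower. Ugp2, which makes the UDP-glucose for glycogen, the lactate exporter Slc16a3, the liver phosphofructokinase Pfkl and Pgd were higher. Without TG_AAV 1, TG_AAV 2 or TG_AAV 3 the number of members called was 8, 9 and 7, beside 12.9%, 13.2% and 12.4% of all tested genes. In this comparison with the 3 control groups, Pygb, Hk2, Slc2a4, Ldhb and Ugp2 passed in every alternative setting. The median log2 difference over the 31 members was -0.14, beside -0.0031 over all tested genes. Summed over the 34 members, TG_AAV held 101752 ± 1528 normalized counts (SD, n = 3) and the controls 118931 ± 9174 (SD, n = 9). In the summed counts the TG_AAV libraries stood at 101646, 103330 and 100279, and the lowest control library, TG_saline 3, at 103409, so that the ranges did not overlap.

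**Figure D1:**
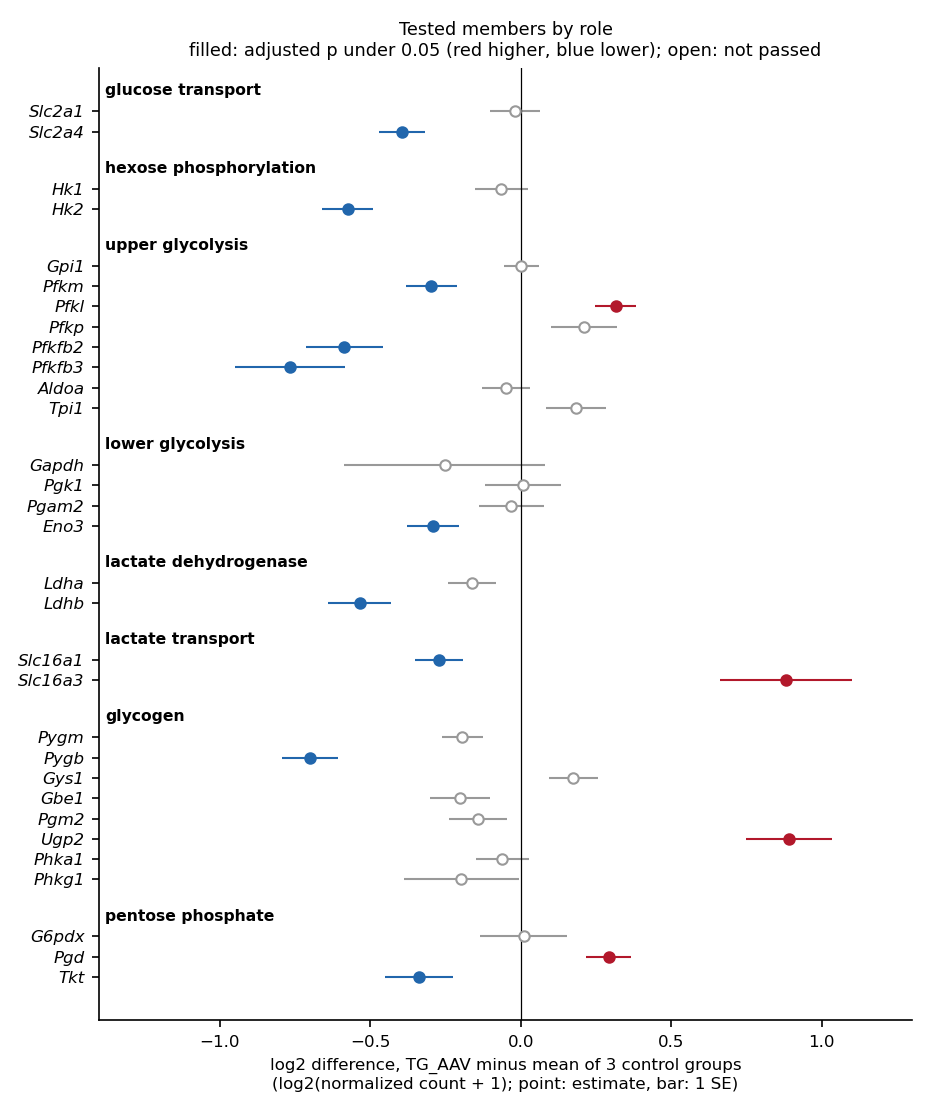
Log2 difference between TG_AAV and the mean of the 3 control groups for the 31 tested members, grouped by role. Points are limma estimates on the log2(normalized count + 1) scale and bars are 1 SE. Of the 14 filled points, 10 lie left of 0 and 4 right of it, with Pygb at -0.70 and Ugp2 at 0.89.

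Mef2d itself, a transcription factor, checks the labels. Its normalized counts were 1989, 2231 and 1897 in TG_AAV and 833 to 1178 in the control libraries, a log2 rise of 1.07 (SE 0.09, limma adjusted p = 5.01e-06). The libraries held 10233281 to 14911986 reads in genes. Within groups they differed beyond counting noise (chi-square per degree of freedom 4.96 to 25.5), and none was a copy. Whether libraries of a group came from separate animals is not stated, so a p-value measures only how these samples spread, which could be technical. Heart muscle genes were abundant, and Myl2, the light chain of ventricular muscle, stood at 44132 to 69429.7 normalized counts over the 12 libraries, beside the atrial transcripts given further on. A list of 10 cardiomyocyte genes, most of which atria share, summed to 1886570 to 2372110 in the controls. In TG_AAV that sum was 1727590 to 1853600, with 4 of the 10 genes lower (Tnnt2, Tnni3, Ryr2 and Pln) and a median log2 difference of -0.30. Ttn and Myh6 made up most of the sum, and neither was called (limma adjusted p = 0.528 and 0.299). The sum of 10 fibroblast markers was 43415 to 46041 in TG_AAV and 30365 to 44447 in the controls, with 5 of the 10 higher, and 3 of 10 endothelial markers were lower. Beside these marker counts, 12% of all tested genes were higher and 9.69% lower. All 6 listed globin genes were listed at 0 in every library and so say nothing of blood, while the erythroid Alas2 stood at 232 to 678 and Slc4a1 at 9.48 to 38.9, neither of them called. None of 8 macrophage or 8 mural markers passed, and 1 of 5 tested skeletal muscle markers was lower, Ckm, which the heart also makes. The skeletal muscle marker Myh2 differed within every group. It stood at 944 to 1272 in WT_saline 1, WT_saline 3, WT_AAV 1, TG_saline 2, TG_AAV 1 and TG_AAV 2, and at 0.796 to 3.04 elsewhere. The part of these shifts in the results on glucose genes was not tested, and in bulk tissue fewer cells of a type and less RNA per cell cannot be told apart. The atrial transcript Myl7 stood at 2042, 1693 and 1505 normalized counts in WT_AAV 1, WT_AAV 3 and TG_AAV 1, called rich in atrial transcripts below. It stood at 728 in TG_saline 1 and 258 in TG_saline 3, and at 1.15 to 19.1 in the other libraries. Leaving out the 3 rich libraries keeps TG_saline 1 and TG_saline 3, and of WT_AAV only WT_AAV 2. The number of calls in that setting is given further on. Adipocyte markers summed to 227 and 404 in WT_AAV 1 and WT_AAV 3 and to at most 44.5 elsewhere. WT_saline 3, WT_AAV 2 and WT_AAV 3 were taken beforehand to stand apart from the other wild-type libraries, and no values given here show it. Leaving them out keeps only WT_AAV 1 of its group, a limit on the counts of that setting given further on.

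Promoters are shown for the members with the smallest p in TG_AAV, so that the letters before their start sites can be read beside the values. Each sequence is the 250 bases before the RefSeq start site on GRCm38.p6, written 5′ to 3′ on the gene's strand. Capitals mark ACGTG, the core of hypoxia response elements, and the GC box GGGCGG, on either strand (CACGT and CCGCCC are their reverse complements). Pygb lies at chr2:150786546-150786795 on the plus strand, and the others on the minus strand, with Hk2 at chr6:82774455-82774704, Ugp2 at chr11:21371268-21371517 (the first of its 2 windows) and Ldhb at chr6:142507958-142508207.
Pygb: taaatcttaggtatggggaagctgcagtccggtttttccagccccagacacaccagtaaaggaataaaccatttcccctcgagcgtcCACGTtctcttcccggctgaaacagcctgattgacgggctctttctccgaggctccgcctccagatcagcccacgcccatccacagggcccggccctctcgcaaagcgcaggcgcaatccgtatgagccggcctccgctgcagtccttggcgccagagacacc
Hk2: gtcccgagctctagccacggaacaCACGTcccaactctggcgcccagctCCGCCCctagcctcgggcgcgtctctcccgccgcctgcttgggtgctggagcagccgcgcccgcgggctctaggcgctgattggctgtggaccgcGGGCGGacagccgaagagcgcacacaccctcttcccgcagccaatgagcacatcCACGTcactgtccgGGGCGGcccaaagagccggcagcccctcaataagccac
Ugp2: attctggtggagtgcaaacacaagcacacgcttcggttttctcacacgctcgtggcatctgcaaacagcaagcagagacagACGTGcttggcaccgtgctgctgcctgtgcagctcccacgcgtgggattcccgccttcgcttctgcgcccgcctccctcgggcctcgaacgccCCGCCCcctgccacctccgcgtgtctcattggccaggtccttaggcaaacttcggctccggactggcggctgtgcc
Ldhb: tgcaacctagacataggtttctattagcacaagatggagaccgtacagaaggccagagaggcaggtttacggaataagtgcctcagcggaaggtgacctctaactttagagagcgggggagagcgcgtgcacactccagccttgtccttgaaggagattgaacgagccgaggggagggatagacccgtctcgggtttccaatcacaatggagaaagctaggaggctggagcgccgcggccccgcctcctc
Slc2a4, also among the 5, is named only. The Pygb window holds ACGTG once, on the opposite strand, Hk2 holds both motifs, Ugp2 holds both, and the Ldhb window holds neither. Windows were found for 32 members, 14 of which hold ACGTG, beside 18.5% of all genes with a window. The longer E-box CACGTG, which contains ACGTG, was found in 5 of the 32 members and in 6.86% of genes. The GC box was found in 20 members and in 35.4% of genes. The MEF2 element was found in 1 member, Pgam2, and in 3.42% of genes. Of the 9 lower members with a window 6 hold ACGTG, and of the 4 higher members 2 do. A match is a description of these letters, and the window ends at the start site.

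Of the glucose transporter transcripts, that of Slc2a4 fell in TG_AAV. Slc2a4 encodes GLUT4, the insulin-responsive transporter of muscle and fat. It stood at 6645, 5750.3 and 5327 in WT_saline, 5702, 5564 and 5215 in WT_AAV, 5034, 5709 and 4851 in TG_saline and 4129, 4377 and 4078 in TG_AAV. All 3 TG_AAV values lay below all 9 control values. The TG_AAV mean of 4194 ± 160.2 (SD, n = 3) compares with 5533 ± 525 (SD, n = 9) in the controls, a ratio of 0.758, and Slc2a4 fell on the log2 scale by 0.39 (SE 0.08, limma adjusted p = 0.00286). Slc2a1, the basal transporter GLUT1, stood at 241, 192 and 231 in WT_saline, 202, 218 and 224 in WT_AAV, 315, 297 and 299 in TG_saline and 233, 245 and 242 in TG_AAV. Its highest values were those of TG_saline, and TG_AAV overlapped WT_saline and lay above WT_AAV. Against the 3 controls its log2 difference was -0.02 (SE 0.08, limma adjusted p = 0.903). Per kilobase of transcript the controls held 2192 normalized counts of Slc2a4 and 75.7 of Slc2a1.

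The first step inside the cell is the phosphorylation of glucose by hexokinase, and here the muscle isozyme was lower. Hk2, the isozyme of insulin-responsive muscle, stood at 7738, 7724 and 7713 in WT_saline, 7628, 7562 and 6854 in WT_AAV, 5996, 6343 and 4648 in TG_saline and 4648, 4607 and 4494 in TG_AAV. The wild-type libraries were highest and TG_AAV lowest, with TG_saline between them and TG_saline 3 level with TG_AAV 1. Hk2 fell on the log2 scale by 0.58 (SE 0.08, limma adjusted p = 0.000417), with a TG_AAV mean 0.663 times that of the controls. Hk1, the isozyme found in most tissues, stood at 2009, 1998 and 1935 in WT_saline, 1557, 1919 and 2257 in WT_AAV, 2195, 2178 and 2054 in TG_saline and 1873, 1903 and 1968 in TG_AAV. These ranges overlapped, and the log2 difference of Hk1 was -0.06 (SE 0.09, limma adjusted p = 0.643).

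**Figure D2:**
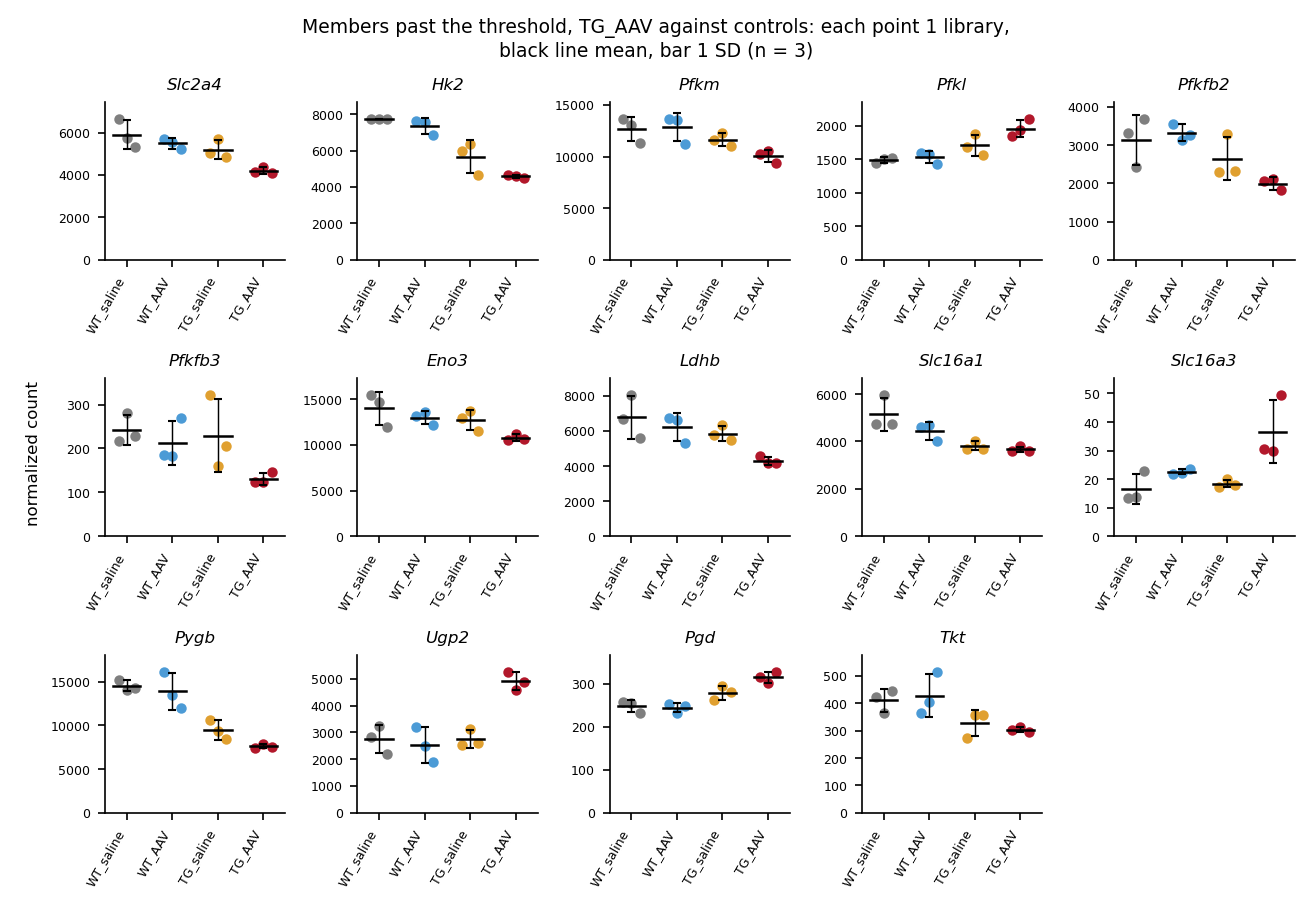
Normalized counts of the 14 members past the threshold in TG_AAV against the controls, 1 point per library, with the mean as a black line and 1 SD as a bar (n = 3 per group). Each axis starts at 0. Hk2 and Pygb step down from WT_saline to TG_saline to TG_AAV, while Ugp2 and Slc16a3 stand high in TG_AAV alone.

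Phosphofructokinase, the main control point of glycolysis, shifted between its subunits. Pfkm, the muscle subunit, stood at 13618, 13038 and 11342 in WT_saline, 13643, 13552 and 11252 in WT_AAV, 11628, 12272 and 11002 in TG_saline and 10200.2, 10557 and 9395 in TG_AAV. Every TG_AAV value lay below every control value, and Pfkm fell by 0.30 (SE 0.08, limma adjusted p = 0.0235). Its call was lost without TG_AAV 1, TG_AAV 2 or TG_AAV 3 (limma adjusted p up to 0.133) and under quantile normalization, where the difference was -0.10 (limma adjusted p = 0.199). Pfkl, the liver subunit, stood at 1442, 1511 and 1522 in WT_saline, 1593, 1576 and 1436 in WT_AAV, 1679.8, 1884 and 1569 in TG_saline and 1844, 1937 and 2106 in TG_AAV. TG_AAV 1 lay below the highest TG_saline value, and otherwise TG_AAV was highest. Pfkl rose by 0.32 (SE 0.07, limma adjusted p = 0.00579), a call lost without TG_AAV 3 (limma adjusted p = 0.0525). Pfkp, the platelet subunit, stood at 542, 396 and 558 in WT_saline, 506, 662 and 616 in WT_AAV, 586, 595 and 577 in TG_saline and 632, 589 and 711 in TG_AAV. The ranges overlapped and its difference of 0.21 did not pass (SE 0.11, limma adjusted p = 0.187).

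Both members that make the phosphofructokinase activator fructose 2,6-bisphosphate were lower. Pfkfb2, the heart isozyme, stood at 3311, 2425 and 3688 in WT_saline, 3565, 3130.4 and 3265 in WT_AAV, 2295, 3288 and 2335 in TG_saline and 2054, 2117 and 1816 in TG_AAV. Pfkfb3, the inducible isozyme, stood at 218, 282 and 229 in WT_saline, 185, 183 and 270.1 in WT_AAV, 321, 159 and 206 in TG_saline and 123, 123 and 147 in TG_AAV. For both genes all TG_AAV libraries lay below all controls, although TG_saline spread widely, from 159 to 321 for Pfkfb3. Pfkfb2 fell on the log2 scale by 0.59 (SE 0.13, limma adjusted p = 0.00576). Pfkfb3 fell by 0.77 (SE 0.18, limma adjusted p = 0.0093), a call lost without TG_AAV 1 (limma adjusted p = 0.0501) or TG_AAV 2 (limma adjusted p = 0.0512). In the reference, 19.5% of the exonic bases of Pfkfb2 and 10.8% of those of Pfkm lie in another gene as well, and the strand setting of the counting is not given in the sources used here.

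Aldolase splits fructose 1,6-bisphosphate. Aldoa, the muscle aldolase and per kilobase the most abundant member in the controls (8897 normalized counts), stood at 13547, 13318 and 12790.3 in WT_saline, 14066, 13302 and 12793 in WT_AAV, 13981, 16969 and 13267 in TG_saline and 13171, 13138 and 13542 in TG_AAV. The groups overlapped and the difference was -0.05 (SE 0.08, limma adjusted p = 0.706). Aldoc, the aldolase of brain, stood at 2.22, 1.15 and 2.17 in WT_saline, 4.60, 1.01 and 0 in WT_AAV, 2.90, 8.84 and 3.61 in TG_saline and 24.1, 19.9 and 24.7 in TG_AAV. It is too low for the test across genes, and all 3 TG_AAV values lay above all 9 controls. The TG_AAV libraries held 84 reads and the 9 control libraries 25, a ratio of 7.89 after scaling, with a 95% interval of 5.0 to 12.9 that covers counting error only. Gpi1, which turns glucose 6-phosphate into fructose 6-phosphate, and Tpi1, the triose phosphate isomerase, did not pass, with differences of 0.00 and 0.18 and ranges of 2268 to 2628 and 2549 to 3988 over the 12 libraries.

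In lower glycolysis 1 of the 4 tested genes passed, 25% beside 21.7% of all tested genes. Eno3, the muscle enolase, stood at 15406, 14664 and 11964 in WT_saline, 13145, 13562 and 12179 in WT_AAV, 12952, 13695 and 11514 in TG_saline and 10555, 11188 and 10606 in TG_AAV. Every TG_AAV value was below every control value, and Eno3 fell by 0.29 (SE 0.09, limma adjusted p = 0.0294). Its call was lost on omission of any 1 of the TG_AAV libraries (limma adjusted p up to 0.121), without WT_AAV 2 (limma adjusted p = 0.051) or without TG_saline 1 (limma adjusted p = 0.0511), and under quantile normalization (difference -0.08, limma adjusted p = 0.433). Pgam2, the muscle phosphoglycerate mutase, stood at 4211, 4502 and 3258 in WT_saline, 4332, 4525 and 3489 in WT_AAV, 4199, 5094 and 3945 in TG_saline and 4060.1, 4012 and 4086 in TG_AAV. Its TG_AAV values sat inside the control range, with a difference of -0.03 (SE 0.11, limma adjusted p = 0.875). Pgam1, the isozyme of most tissues, stood at 5.55, 5.73 and 10.9 in WT_saline, 11.5, 10.1 and 9.64 in WT_AAV, 4.83, 3.31 and 6.33 in TG_saline and 8.75, 7.97 and 7.96 in TG_AAV, below the limit for testing. Gapdh and Pgk1, usually abundant, were listed at only 11.8 to 31.5 and 96.7 to 157 normalized counts, and neither passed (differences -0.25 and 0.01). In the reference, 88% of the Gapdh transcript is shared at 95% identity or more with other genes, 78 of them pseudogenes, and the share is 85.6% for Eno1, 76.8% for Ldhb, 68.8% for Pgk1, 55.4% for Gpi1, 55% for Ldha and 43.1% for Pgam1. How reads that fit several places were counted is not given in the sources used here, so the levels of these 7 genes are uncertain.

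Lactate dehydrogenase interconverts pyruvate and lactate, and its heart subunit was lower. Ldhb, the subunit typical of heart, stood at 6711, 8028 and 5596 in WT_saline, 6767, 6635 and 5325 in WT_AAV, 5775, 6314 and 5468 in TG_saline and 4582, 4189 and 4163 in TG_AAV. The highest TG_AAV value lay below the lowest control value, and the TG_AAV mean was 0.685 times the control mean. Ldhb fell on the log2 scale by 0.54 (SE 0.10, limma adjusted p = 0.00289). Ldha, the subunit typical of skeletal muscle, stood at 3754, 3695 and 3282 in WT_saline, 3859, 3228 and 2947 in WT_AAV, 3232, 3478 and 3088 in TG_saline and 3049, 3004 and 3012 in TG_AAV. TG_AAV overlapped the lowest WT_AAV library, and the difference of -0.16 did not pass (SE 0.08, limma adjusted p = 0.162), though it passed without the 3 wild-type libraries that stand apart (limma adjusted p = 0.00521).

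The lactate transporters moved in opposite directions. Slc16a1 encodes MCT1, through which heart muscle takes up lactate, and stood at 4755, 5944 and 4746 in WT_saline, 4628, 4682 and 4013 in WT_AAV, 3703, 4029 and 3698 in TG_saline and 3589.7, 3804 and 3609 in TG_AAV. WT_saline was highest, and TG_AAV overlapped TG_saline. Slc16a1 fell by 0.27 (SE 0.08, limma adjusted p = 0.0283), and leaving out any 1 of the TG_AAV libraries ended the call (limma adjusted p up to 0.117). Slc16a3 encodes MCT4, the lactate exporter of glycolytic cells, and stood at 13.3, 13.7 and 22.8 in WT_saline, 21.8, 22.3 and 23.6 in WT_AAV, 17.4, 19.9 and 18.1 in TG_saline and 30.6, 29.9 and 49.3 in TG_AAV. All TG_AAV libraries lay above all controls, TG_AAV 3 highest. Slc16a3 rose by 0.88 (SE 0.22, limma adjusted p = 0.0119), from 134 reads in TG_AAV and 164 in the controls, and the call was lost without TG_AAV 3 (limma adjusted p = 0.103). Its level stayed small: per kilobase TG_AAV held 8.45 normalized counts of Slc16a3 and 829 of Slc16a1.

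Of the 8 glycogen members tested, Ugp2 rose and Pygb fell, 25% beside 21.7% of all tested genes. Ugp2, UDP-glucose pyrophosphorylase, stood at 2832, 3251 and 2199 in WT_saline, 3214, 2477 and 1879 in WT_AAV, 2515, 3127 and 2609.9 in TG_saline and 5254, 4591 and 4878 in TG_AAV. The lowest TG_AAV library stood well above the highest control library, WT_saline 2. The TG_AAV mean of 4908 ± 332 (SD, n = 3) compares with 2678 ± 472 (SD, n = 9) in the controls, a ratio of 1.83 and a log2 rise of 0.89 (SE 0.14, limma adjusted p = 0.000823). Pygb, the brain-type glycogen phosphorylase, which heart muscle also makes, stood at 15236, 14046 and 14329 in WT_saline, 16134, 13536 and 12008 in WT_AAV, 10637, 9410.5 and 8404 in TG_saline and 7399, 7869 and 7577 in TG_AAV. The wild-type libraries were highest, TG_saline lay between and TG_AAV lowest, with no overlap between any of these. Its TG_AAV mean of 7615 ± 238 (SD, n = 3) compares with 12638 ± 2678 (SD, n = 9) in the controls, a ratio of 0.603 and a log2 difference of -0.70 (SE 0.09, limma adjusted p = 0.000209). Pygm, the muscle phosphorylase, stood at 13191, 12698 and 12172 in WT_saline, 13334, 13489.5 and 12064 in WT_AAV, 11426, 12572 and 11426 in TG_saline and 10860.2, 11393 and 10459 in TG_AAV. TG_AAV lay below all controls, yet its difference of -0.19 did not pass (SE 0.07, limma adjusted p = 0.059), and it passed in 8 of 24 alternative settings, among them edgeR (adjusted p = 0.0447) and DESeq2 (adjusted p = 0.00603). The remaining glycogen members did not pass. These were the synthase Gys1 (0.18), the branching enzyme Gbe1 (-0.20), the phosphorylase kinase subunits Phka1 (-0.06) and Phkg1 (-0.20), and Pgm2 (-0.14). They ranged over the 12 libraries from 1624 to 2163 for Gys1, 601 to 822 for Gbe1, 916 to 1291 for Phka1, 233 to 506 for Phkg1 and 2297 to 3159 for Pgm2. The symbol Pgm2 has been exchanged between phosphoglucomutase genes, so which of them this row holds is uncertain.

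In the pentose phosphate pathway 1 of 3 tested members was higher and 1 lower, 66.7% beside 21.7% of all tested genes. Pgd, which makes NADPH in the oxidative branch, stood at 258, 254 and 231 in WT_saline, 253, 232 and 248 in WT_AAV, 262, 295 and 279 in TG_saline and 314, 301 and 327 in TG_AAV. All TG_AAV values lay above all controls, and Pgd rose by 0.29 (SE 0.07, limma adjusted p = 0.0126), a call lost without TG_AAV 1 (limma adjusted p = 0.0576) or TG_AAV 3 (limma adjusted p = 0.078). Tkt, the transketolase of the other branch, stood at 422, 364 and 446 in WT_saline, 365, 405 and 514 in WT_AAV, 273, 356 and 357 in TG_saline and 300.5, 313 and 297 in TG_AAV. TG_AAV overlapped TG_saline and lay below the wild-type libraries. Tkt fell by 0.34 (SE 0.11, limma adjusted p = 0.0477), the smallest margin of the 14, and the call was lost in 11 of 24 alternative settings, with a limma adjusted p up to 0.154 without TG_AAV 3. The libraries whose single omission ended it were WT_saline 1, WT_saline 3, WT_AAV 2, TG_saline 2, TG_saline 3 and each of the TG_AAV libraries. G6pdx, the first enzyme of the pathway, ranged from 58.6 to 85.1 and had a difference of 0.01 (SE 0.14, limma adjusted p = 0.97).

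TG_AAV differs from the controls by genotype and by injection, and the transgene was compared on its own first. In TG_saline against WT_saline 0 of the 31 members passed in limma, beside 0.0998% of all tested genes. At an unadjusted p under 0.05 there were 6 members, beside 11.2% of all tested genes, and edgeR called 1 and DESeq2 4, beside 0.276% and 1.64%. The values did not overlap for 9 members, 5 higher and 4 lower in TG_saline, beside 8.71% and 7.84% of all tested genes, 16.6% in all. In either direction alone, 0.0844% of tested genes were called higher and 0.0153% lower. The 4 members with the smallest p were Pygb (-0.62, SE 0.11, limma adjusted p = 0.0538), Slc2a1 (0.46, SE 0.10, limma adjusted p = 0.0849), Hk2 (-0.46, SE 0.10, limma adjusted p = 0.0994) and Slc16a1 (-0.43, SE 0.10, limma adjusted p = 0.101). Pygb stood at 10637, 9410.5 and 8404 in TG_saline beside 15236, 14046 and 14329 in WT_saline, without overlap. It passed with edgeR (adjusted p = 0.0490) and without WT_AAV 1 (limma adjusted p = 0.0317), WT_AAV 3 (limma adjusted p = 0.0306) or TG_saline 1 (limma adjusted p = 0.0403).

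Against TG_saline, which shares the transgene, 1 of the 31 members passed in TG_AAV, beside 6.09% of all tested genes (3.69% higher, 2.4% lower). It was Ugp2, 1.78 times the TG_saline mean (0.84, SE 0.18, limma adjusted p = 0.0126), and its call was lost without TG_saline 1 (limma adjusted p = 0.0592), TG_saline 3 (limma adjusted p = 0.0529) or TG_AAV 1 (limma adjusted p = 0.0572). With 1 library left out the count reached 4, without WT_saline 3 (8.12% of all tested genes), and 3 without WT_saline 2 (6.32%) or WT_AAV 3 (7.92%). At an unadjusted p under 0.05 there were 12 members, beside 20.8% of all tested genes, edgeR called 4, DESeq2 6, and a fit of these groups alone 8, beside 6.68%, 9.09% and 13.3% of all tested genes. Values did not overlap for 15 members, 4 higher and 11 lower in TG_AAV, beside 18.3% and 15.5% of all tested genes, 33.8% in all. The next smallest p were those of Ldhb (-0.44, SE 0.13, limma adjusted p = 0.0606), Slc16a3 (0.92, SE 0.27, limma adjusted p = 0.0633), Slc2a1 (-0.34, SE 0.10, limma adjusted p = 0.0665), Pfkfb3 (-0.74, SE 0.22, limma adjusted p = 0.0688) and Slc2a4 (-0.31, SE 0.09, limma adjusted p = 0.074).

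These comparisons share the TG_saline libraries, so their values are given side by side. Hk2 differed by -0.46 between TG_saline and WT_saline and by -0.29 between TG_AAV and TG_saline (limma adjusted p = 0.119 for the latter). For Pygb the values were -0.62 and -0.31 (limma adjusted p = 0.133 for the latter), for Slc16a1 -0.43 and -0.05, and for Tkt -0.33 and -0.10. Ugp2 differed by 0.01 and 0.84, Pfkfb3 by -0.14 and -0.74, Slc16a3 by 0.18 and 0.92, and Ldhb by -0.20 and -0.44. Slc2a1 had opposite signs, 0.46 and -0.34. Whether one step exceeds the other was not tested.

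**Figure D3:**
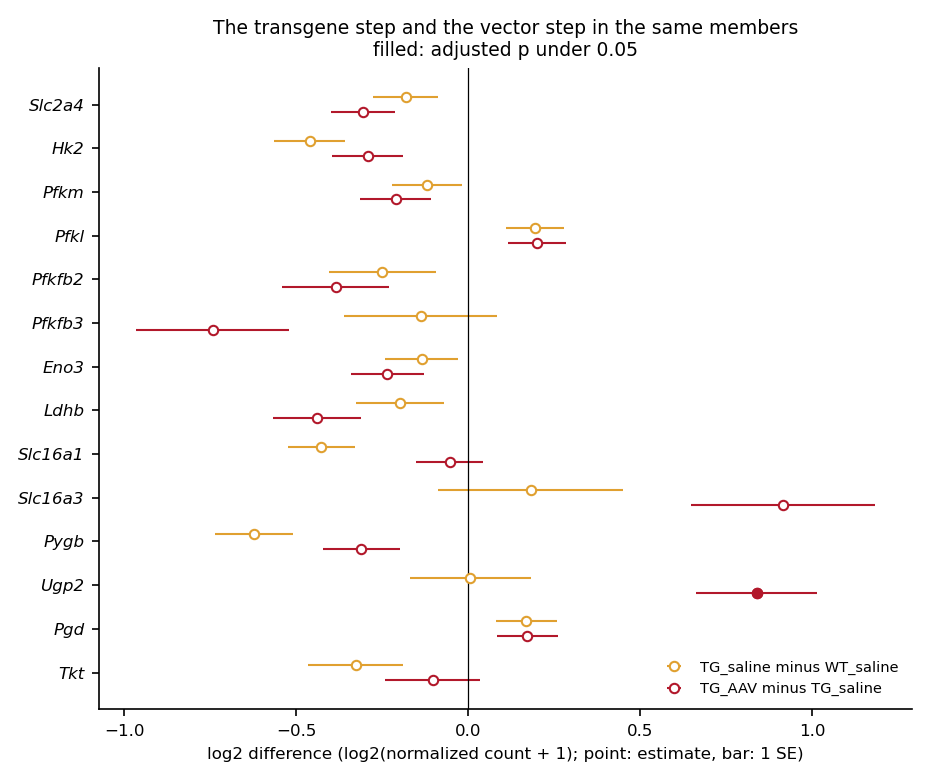
Log2 differences of the 14 members called against the 3 controls, split into TG_saline minus WT_saline (orange) and TG_AAV minus TG_saline (red), as limma estimates with 1 SE on the log2(normalized count + 1) scale. Both series use the TG_saline libraries. The point of Ugp2 at 0.84 is the filled one, and Pygb, Hk2, Slc16a1 and Tkt lie further from 0 in orange than in red.

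The vector without the transgene gave no call. In WT_AAV against WT_saline 0 of the 31 members passed in limma, edgeR or DESeq2, and 0 had an unadjusted p under 0.05, beside 0% of all tested genes past the adjusted threshold and 3.94% at an unadjusted p under 0.05. The interaction, which subtracts the effect of the vector in wild-type hearts from its effect in transgenic ones, passed for 0 of the 31 members in limma, beside 0.852% of all tested genes. At an unadjusted p under 0.05 there were 2 members, beside 11.7% of all tested genes, and edgeR called 0 and DESeq2 1, beside 0.798% and 2.11%. Ugp2 had a difference of 0.99 (SE 0.25, limma adjusted p = 0.102), which passed without WT_saline 3 (limma adjusted p = 0.0337) or WT_AAV 1 (limma adjusted p = 0.0315), and Pfkfb2 of -0.49 (SE 0.22, limma adjusted p = 0.417).

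Because several steps have isozymes typical of different tissues, the ratio of isozymes was also taken within each library, as the log2 ratio of normalized count + 1. Of 10 pairs 9 were tested, TG_AAV against the 9 controls, by exact permutation (two-sided), and the enolase pair could not be tested since Eno1 was at 0. In 6 pairs the adjusted p was under 0.05, and in the same 6 no TG_AAV value overlapped a control value. No such share was taken over other gene pairs, so whether 6 of 9 is many is not known. Of all tested genes taken singly, 17.5% did not overlap the controls. Apart from Aldoc and Aldoa, each of these pairs holds a member already called against the controls, so the ratios are no separate evidence. For 3 libraries against 9 the smallest p is 0.00455. The ratio was higher in TG_AAV in 5 of these 6 pairs and lower in 1. The log2 ratio of Pfkl to Pfkm came to -3.24, -3.11 and -2.90 in WT_saline, -3.10, -3.10 and -2.97 in WT_AAV, -2.79, -2.70 and -2.81 in TG_saline and -2.47, -2.45 and -2.16 in TG_AAV, and was higher in TG_AAV by 0.61 (exact permutation p = 0.00455, adjusted over the 9 ratios 0.00818). Pfkp to Pfkm stood at -4.65, -5.04 and -4.34 in WT_saline, -4.75, -4.35 and -4.19 in WT_AAV, -4.31, -4.36 and -4.25 in TG_saline and -4.01, -4.16 and -3.72 in TG_AAV, a difference of 0.51 (exact permutation p = 0.00909, adjusted over the 9 ratios 0.0136). Both ratios share Pfkm, so they are not independent. The lactate dehydrogenase ratio of Ldha to Ldhb came to -0.84, -1.12 and -0.77 in WT_saline, -0.81, -1.04 and -0.85 in WT_AAV, -0.84, -0.86 and -0.82 in TG_saline and -0.59, -0.48 and -0.47 in TG_AAV, higher by 0.37 in TG_AAV (exact permutation p = 0.00455, adjusted over the 9 ratios 0.00818). For the lactate transporters the log2 ratio of Slc16a3 to Slc16a1 came to -8.38, -8.66 and -7.64 in WT_saline, -7.66, -7.65 and -7.35 in WT_AAV, -7.65, -7.59 and -7.60 in TG_saline and -6.83, -6.94 and -6.16 in TG_AAV, a difference of 1.15 (exact permutation p = 0.00455, adjusted over the 9 ratios 0.00818). The aldolase ratio of Aldoc to Aldoa came to -12.04, -12.60 and -11.98 in WT_saline, -11.29, -12.69 and -13.64 in WT_AAV, -11.81, -10.75 and -11.49 in TG_saline and -9.04, -9.29 and -9.04 in TG_AAV, higher by 2.91 (exact permutation p = 0.00455, adjusted over the 9 ratios 0.00818), on very few Aldoc reads. The TG_saline libraries did not reach TG_AAV in any of these 5. Ldha and Ldhb share 55% and 76.8% of their transcripts with other genes, so the levels in their ratio are uncertain.

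The phosphorylase ratio of Pygb to Pygm went the other way. Its log2 values were 0.21, 0.15 and 0.24 in WT_saline, 0.27, 0.00 and -0.01 in WT_AAV, -0.10, -0.42 and -0.44 in TG_saline and -0.55, -0.53 and -0.47 in TG_AAV. The difference was -0.51 (exact permutation p = 0.00455, adjusted over the 9 ratios 0.00818), and TG_saline lay between wild-type and TG_AAV. The permutation treats the 9 controls as 1 group, yet their mean ratios differed, at 0.20 in WT_saline and -0.32 in TG_saline. Between TG_AAV and TG_saline the difference was -0.20 (exact permutation p = 0.1, the smallest that 3 libraries against 3 allow). The ratio of Hk1 to Hk2 came to -1.95, -1.95 and -1.99 in WT_saline, -2.29, -1.98 and -1.60 in WT_AAV, -1.45, -1.54 and -1.18 in TG_saline and -1.31, -1.28 and -1.19 in TG_AAV, where TG_saline 3 reached above TG_AAV, and the difference of 0.51 did not pass (exact permutation p = 0.0455, adjusted over the 9 ratios 0.0584). Slc2a1 to Slc2a4 came to -4.78, -4.89 and -4.52 in WT_saline, -4.81, -4.67 and -4.54 in WT_AAV, -3.99, -4.26 and -4.01 in TG_saline and -4.14, -4.15 and -4.07 in TG_AAV. Both transgenic groups stood above both wild-type groups, and the difference between TG_AAV and the 9 controls was 0.38 (exact permutation p = 0.114, adjusted over the 9 ratios 0.128). Pgam1 to Pgam2 differed by 0.23 (exact permutation p = 0.591, adjusted over the 9 ratios 0.591). Leaving out single libraries, the number of pairs past the threshold ran from 4 to 7, with the lowest value without TG_AAV 3. Without TG_AAV 3 the pair Slc16a3 and Slc16a1 no longer passed (exact permutation p adjusted over the 9 ratios 0.0655). Pfkp to Pfkm no longer passed without WT_saline 1 or any 1 of the TG_AAV libraries, and Pygb to Pygm without the 3 wild-type libraries that stand apart (exact permutation p adjusted over the 9 ratios 0.0714). The cardiomyocyte marker sum, most of it from Ttn and Myh6, which were not called, was also lowest in TG_AAV. Its part in these ratios was not tested.

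**Figure D4:**
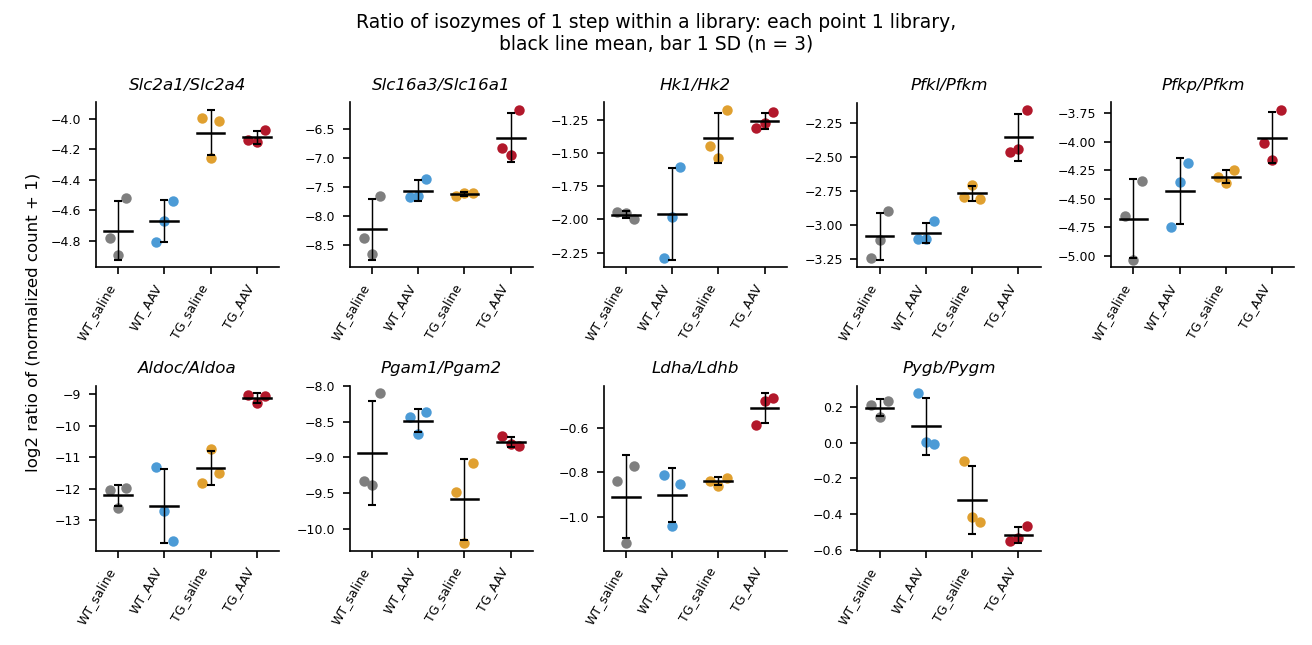
Log2 ratio of the normalized counts (+ 1) of isozyme pairs within each library, 1 point per library, with the group mean as a black line and 1 SD as a bar (n = 3). Axes do not start at 0. TG_AAV lies above every control library for Slc16a3/Slc16a1, Pfkl/Pfkm, Pfkp/Pfkm, Aldoc/Aldoa and Ldha/Ldhb, and below every control library for Pygb/Pygm.

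Around the members, 105 other genes of glucose metabolism were listed by pathway, of which 95 were tested. Against the controls 15 were higher and 13 lower in TG_AAV, 29.5% of those tested, beside the 21.7% of all genes. Against TG_saline 3 were higher and 3 lower, 6.32% beside 6.09%. The genes past both thresholds were Pdk3, Slc16a7, Gyg, Pdk2, Prkab1 and Pdpk1. The entry of pyruvate into mitochondria had the largest share of calls, 57.1%, with 2 higher and 6 lower of 14 tested.

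Pyruvate dehydrogenase joins glycolysis to the citrate cycle, and its kinases switch it off. Pdk3 stood at 43.3, 53.8 and 36.9 in WT_saline, 42.5, 29.4 and 41.8 in WT_AAV, 36.7, 49.7 and 45.2 in TG_saline and 99.2, 119 and 119 in TG_AAV. It rose on the log2 scale by 1.41 (SE 0.16, limma adjusted p = 8.03e-05), and every TG_AAV library held more than any control library. Pdk2, the kinase that muscle and many tissues share, stood at 3432, 2655 and 3345 in WT_saline, 2968, 3701 and 3356 in WT_AAV, 3001, 2985 and 3265 in TG_saline and 2114, 2159 and 1974 in TG_AAV. Without overlap, it fell by 0.61 (SE 0.09, limma adjusted p = 0.000355). Pdk1 rose by 0.29 (SE 0.09, limma adjusted p = 0.036), and Pdk4, the kinase that fasting raises, spread from 1136 to 7227 over the libraries with no call (0.16, SE 0.44, limma adjusted p = 0.837). The phosphatases that switch the complex on again, Pdp2 (-0.51) and Pdp1 (-0.53), its subunits Pdha1 (-0.40) and Dld (-0.51), and the pyruvate carrier subunit Mpc1 (-0.48) fell against the controls, with limma adjusted p from 0.000393 for Pdp2 to 0.0148 for Pdha1.

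Genes of glycogen outside the members gave 5 higher and 1 lower of 19 tested, 31.6% beside 21.7% of all tested genes. Gyg, glycogenin, the primer on which glycogen is built, stood at 1421, 1550.3 and 1204 in WT_saline, 1343, 1307 and 1154 in WT_AAV, 1440.1, 1548 and 1389.9 in TG_saline and 2069.8, 2017 and 2036 in TG_AAV. Its TG_AAV libraries all exceeded its controls, and it rose by 0.58 (SE 0.08, limma adjusted p = 0.00024). The liver phosphorylase Pygl (1.16), the glycogen-binding Stbd1 (0.76), the lysosomal glucosidase Gaa (0.38) and the phosphatase subunit Ppp1r3d (0.37) rose, and the phosphorylase kinase subunit Phka2 (-0.28) fell, with limma adjusted p from 0.00036 for Pygl to 0.0485 for Phka2. Pygl stood at 73.3, 71.0 and 67.3 in WT_saline, 118, 178 and 137 in TG_saline and 204, 249 and 165 in TG_AAV. Its TG_saline values already lay above WT_saline.

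Of 10 other glycolysis genes tested 1 was higher and 1 lower, 20% beside 21.7% of all tested genes. Ldhd rose by 0.33 and Pfkfb1 fell by 1.65, both against the controls. Pfkfb1 stood at 202, 301 and 325 in WT_saline, 213, 195 and 301 in WT_AAV, 116, 75.1 and 93.1 in TG_saline and 51.1, 79.7 and 44.6 in TG_AAV. Both transgenic groups lay below both wild-type groups, and TG_AAV overlapped TG_saline. The pathway lists were chosen with an earlier account of these data known, which had named Pfkfb1 among the genes that fell. A share of calls that rests on Pfkfb1 is therefore no independent result. In TG_saline against WT_saline Pfkfb1 was the 1 pathway gene called of 95, 1.05% beside 0.0998% of all tested genes (-1.53, SE 0.25, limma adjusted p = 0.0431). That call was lost in 11 of 25 settings, with a limma adjusted p up to 0.189, among them the omission of WT_saline 2, WT_saline 3, WT_AAV 2, TG_saline 2, TG_saline 3, TG_AAV 1 or TG_AAV 3. Between TG_AAV and TG_saline its difference was -0.71 (SE 0.25, limma adjusted p = 0.117). Of 10 other transport genes tested 1 passed, 10% beside 21.7% of all tested genes. The 1 was the lactate and pyruvate transporter Slc16a7 (MCT2). It stood at 84.4, 83.6 and 103 in WT_saline, 44.8, 73.1 and 77.2 in WT_AAV, 85.1, 66.3 and 67.8 in TG_saline and 29.2, 20.9 and 29.4 in TG_AAV, and fell by 1.47 (SE 0.18, limma adjusted p = 0.000113) without overlap.

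In the pentose phosphate list 2 of 8 tested rose, Taldo1 (0.37), the partner of Tkt in the nonoxidative branch, and Tigar (0.43), which lowers fructose 2,6-bisphosphate. Of 16 genes of insulin and AMPK signalling 4 rose, Pdpk1 (0.39), Prkag2 (0.35), Prkag3 (0.64) and Pik3ca (0.22), and 1 fell, the AMPK subunit Prkab1. Prkab1 stood at 404, 420.2 and 318 in WT_saline, 273, 294 and 369 in WT_AAV, 361, 422 and 345 in TG_saline and 193, 229 and 200.5 in TG_AAV, lower in TG_AAV by 0.77 without overlap (SE 0.11, limma adjusted p = 0.000464). Of 18 regulators of glucose genes Hif1a (0.43), the hypoxia-inducible factor, rose, and Mlxipl (-0.64), the glucose-sensing factor ChREBP, Usf2 (-0.31) and Esrra (-0.20) fell. Called in these lists were 25% (pentose phosphate), 31.2% (insulin and AMPK signalling) and 22.2% (regulators), beside 21.7% of all tested genes. Of these 28 calls against the controls, 11 were made in every alternative setting, those of Slc16a7, Pfkfb1, Gyg, Pygl, Mpc1, Pdk2, Pdk3, Pdp2, Pdpk1, Prkab1 and Prkag2. Omission of TG_AAV 1 gave 18 calls, omission of TG_AAV 2 gave 15, and omission of TG_AAV 3 gave 17. Of all tested genes 12.9%, 13.2% and 12.4% were called in these settings. Phka2, Ppp1r3d, Pik3ca, Esrra and Pdk1 lost their calls in 7 or more of the 24 settings, and these calls also ended on omission of single control libraries. Against TG_saline, the call of Pdpk1 was lost in 7 settings, without WT_saline 1 or any 1 of the TG_saline or TG_AAV libraries (limma adjusted p up to 0.151). The call of Hif1a was lost without the 3 libraries rich in atrial transcripts (limma adjusted p = 0.0841).

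**Figure D5:**
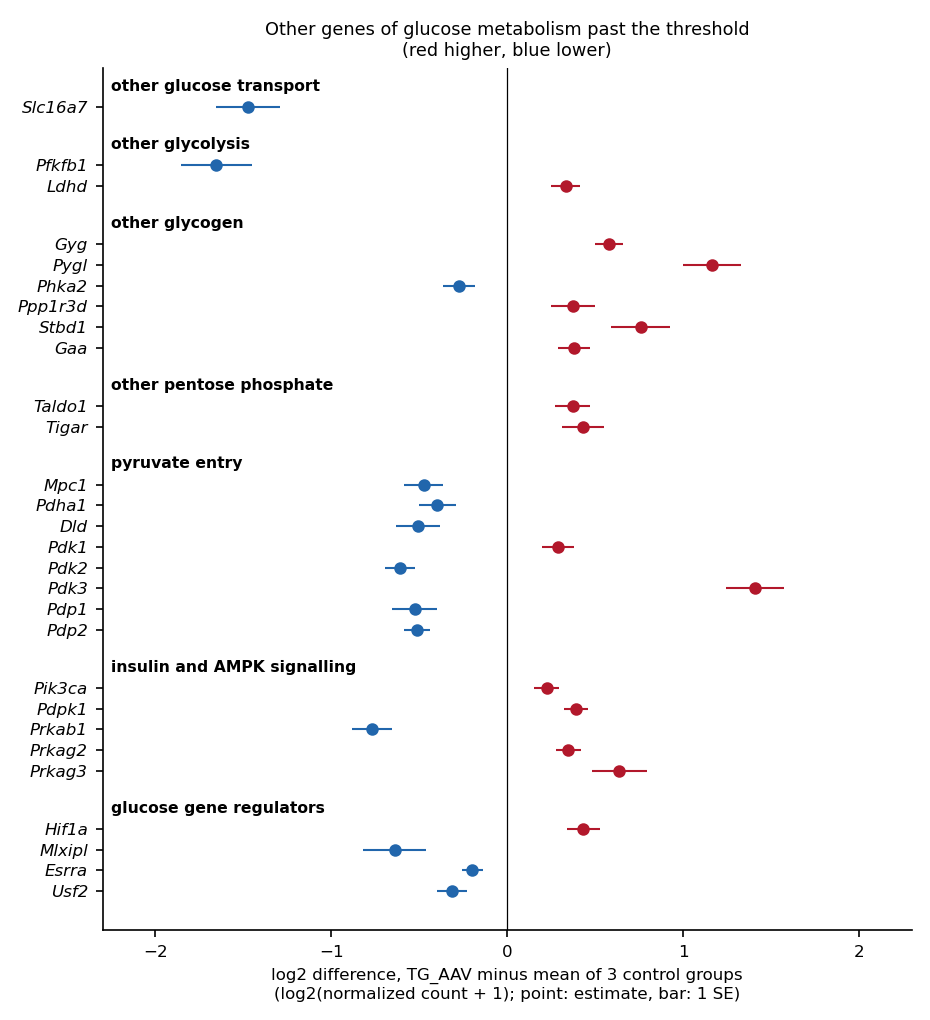
Log2 difference between TG_AAV and the mean of the 3 control groups for the 28 pathway genes past the threshold, by list. Points are limma estimates on the log2(normalized count + 1) scale and bars are 1 SE. Pdk3 at 1.41 and Pygl at 1.16 lie furthest right, Pfkfb1 at -1.65 and Slc16a7 at -1.47 furthest left.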

How the data were processed

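The deposited values are normalized counts, a signal unit, with 1 row per symbol and 1 column for each of the 12 libraries. In each column they are multiples of 1 step, so reads had been scaled per library. The submitters' processing notes name Bowtie2 2.0, DESeq2 and the build mm9, without their roles. Not given in the sources used here are annotation, counter and strand setting. Dividing by the step recovered whole reads (100% of positive values, tolerance 0.01).

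The log2 of normalized count + 1 was fitted with limma 3.58.1 in R 4.3.3, with a variance trend and 1 mean per group over all 12 libraries, for 13030 genes with a mean of 10 or more. This scale understates the change of low genes. Tests were two-sided, with Benjamini-Hochberg adjusted p over all tested genes and a threshold of 0.05. Alternatives used edgeR 4.0.16 and DESeq2 1.42.0 on recovered reads, other scalings, filters and pseudocounts, a replicate block, and omission of libraries.

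Members called in any comparison and members of isozyme pairs are given per library, the others by range, and pathway genes if called. The members, lists and tests were chosen with earlier results of these data known. The alternatives for the pathway lists were added after the data were seen. A spreadsheet had turned 27 symbols into dates, and these were kept without a name. Transcript sequence came from GENCODE M21 (GRCm38, another build than mm9), searched with blastn 2.17.0, and promoters came from RefSeq. The read-ratio interval is an exact 95% interval. The limma test of TG_AAV against the controls was checked on simulated counts, with the same dispersion for every gene and no differences in cell content between libraries. The permutation test was checked on random values. The other comparisons, edgeR and DESeq2 were not checked in this way. Of the pathway lists, 1 gene is not reported here and was left out of their counts.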

Additional observations from a re-analysis of the deposited data

Results flagged for a closer look

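Pdk3, a kinase that switches pyruvate dehydrogenase off, passed the threshold for a difference between genotypes in the response to the vector. The interaction of transgene and vector was 1.58 on the log2 scale (limma adjusted p = 0.0224). Pdk3 was the 1 called gene of the 95 tested pathway genes, 1.05%, which is close to the 0.852% of all tested genes. In TG_AAV it stood at 99.2, 119 and 119 beside 36.7, 49.7 and 45.2 in TG_saline, and in WT_AAV at 42.5, 29.4 and 41.8 beside 43.3, 53.8 and 36.9 in WT_saline. It kept its sign in 24 alternative settings and passed in 18 of them. The call was lost without WT_saline 1, WT_saline 2, TG_saline 1, TG_AAV 2 or TG_AAV 3, and without the 3 libraries rich in atrial transcripts, with a limma adjusted p up to 0.0813.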

How the results depend on the processing

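Of the 14 members called against the controls, 5 (Pygb, Hk2, Slc2a4, Ldhb and Ugp2) passed in all 24 alternative settings and 0 reversed in any. The count was 6 without the 3 libraries rich in atrial transcripts and 7 to 15 when single libraries were left out. With the replicate block it was 15, and 19 without the 3 wild-type libraries that stand apart. The share of all tested genes moved too, from 21.7% to 13.1%, 12.4 to 24.3%, 23.8% and 25.2% in these settings. Against TG_saline, where 1 passed, the count was 2 with TMM scaling, 4 with quantile normalization, 4 with the replicate block, 4 with edgeR, 6 with DESeq2, 8 in a fit of only the groups compared, 9 without the 3 wild-type libraries that stand apart and 0 to 4 when single libraries were left out. Of all tested genes 6.09% passed there, and in these settings 6.16%, 7.05%, 7.54%, 6.68%, 9.09%, 13.3%, 13.5% and 3.06 to 8.12%. For TG_saline against WT_saline, where 0 passed, it was 4 with DESeq2, 1 with the robust variance estimate, the replicate block, edgeR or without the 3 wild-type libraries, and 0 to 1 when single libraries were left out. All tested genes went from 0.0998% to at most 1.64%, with DESeq2. For the interaction, where 0 passed, it was 1 with quantile normalization, the replicate block, DESeq2 or without the 3 wild-type libraries, and 0 to 1 with libraries left out, while all tested genes went from 0.852% to at most 2.11%, with DESeq2. The vector alone gave 0 in every setting. The pathway genes follow, beside the same shares of all tested genes in each setting. For the pathway genes, of which 28 were called against the controls, the count was 18 without the 3 atrial-rich libraries and 15 to 32 with single libraries left out, and 0 reversed. Against TG_saline, where 6 were called, it was 10 with the replicate block, 12 with DESeq2, 19 in a fit of only the groups compared, 20 without the 3 wild-type libraries, and 5 to 12 with single libraries left out. Of the 6 isozyme ratios past the threshold 0 passed without the 3 atrial-rich libraries, where 2 libraries face 7 and the smallest exact p is 0.0278, and 4 to 7 with single libraries left out. Otherwise the cause of these shifts was not tested.

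Members not called changed sign in some settings. Under quantile normalization the difference was 0.15 for Aldoa, 0.0704 for Pgam2 and 0.0234 for Pygm. With single libraries left out, Pgam2 ran from -0.0768 (without WT_saline 3) to 0.0056 (without TG_saline 2), passing 0.00091 without WT_saline 2. Slc2a1 ran from -0.0509 (without WT_saline 2) to 0.0030 (without WT_saline 1), with 0.0021 without TG_AAV 1. Without the 3 wild-type libraries that stand apart, Slc2a1 was at 0.0213 and Hk1 at 0.0236. Deviations from the group mean of same-numbered libraries of different groups correlated from -0.158 to 0.332, with a mean of 0.0958. The mean of -0.0478 for other pairs is no separate evidence, since centring on group means ties it to the first. In 8 of 12 libraries the best correlation was with their own number, a hint from the data that the numbers share something. The labels name no shared litter or day and not every pair was above 0.1, so the comparisons were made without the replicate block.

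A fit of only the groups compared has no other form for TG_AAV against all controls or for the interaction, which use every group. Depth limits Aldoc, Pgam1, Slc16a3 and Gapdh, which held few reads. An exact test of 3 libraries against 3 cannot give a p below 0.1, and against TG_saline the exact permutation p of the 9 isozyme ratios ran from 0.1 to 0.8. Scaling per library hides any change common to most genes.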
